A study of Mus musculus with 8 samples.

Results

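Broad accessible regions are stretches of open chromatin of 1000 bp or more in mouse macrophages grown from bone marrow, mapped by ATAC-seq, an assay whose Tn5 enzyme cuts accessible DNA and tags it with adapters. Peaks of all 8 libraries that overlapped by at least 1 bp were joined, and the joined regions on chromosomes 1 to 19 that spanned 1000 bp or more were kept. This gave 2019 broad regions of 76751 joined regions in all, 75252 of them on these chromosomes. The members were chosen by the joined width of the called peaks, which is a measured value of these same libraries. Widths, calls and strengths below are therefore given as descriptions with no test.

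The study compared wild-type (WT) cells with cells that lack Lamin-A (KO), the product of Lmna and part of the meshwork that lines the nucleus. Cells of each genotype were left untreated or exposed for 6 h to lipopolysaccharide (LPS), an outer membrane molecule of bacteria that TLR4 detects. There were 4 groups of 2 libraries, named WT untreated, WT LPS, KO untreated and KO LPS. All cells were cultured from bone marrow, frozen and thawed before tagmentation. The labels give neither the LPS dose, the targeted part of Lmna, nor the animals behind each replicate. The source name field reads untreated for LPS libraries too, and the titles were followed.

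Open chromatin usually appears as a short nucleosome-free window at a promoter or enhancer. A wider window arises where several such sites lie side by side, where promoters of both strands meet, or where transcription and many bound factors keep a longer stretch clear of nucleosomes. CpG islands, GC-rich stretches that keep their CpG dinucleotides, sit at the promoters of most widely expressed genes. In macrophages, LPS turns on inflammatory and interferon-response genes within hours through NF-kB, AP-1 and interferon regulatory factors.

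The promoters that carry this description are shown first. They are the 250 bases before the start site of 5 broad regions, from RefSeq on GRCm38.p6 (the mm10 build of the peak lists), read 5′ to 3′ on the strand of the gene, with each CpG in capitals. Alyref2 (chr1:171503228-171503477, plus strand) has the widest member with a listed start site after that of LOC108167694, Rab40c (chr17:25919715-25919964, minus strand) and Zfp869 (chr8:69716903-69717152, minus strand) have the strongest members, Hmga2 (chr10:120476470-120476719, minus strand) has a member that was narrower after LPS in both genotypes, and Rfx7 (chr9:72531990-72532239, plus strand) one that was narrower after LPS in KO.
Alyref2: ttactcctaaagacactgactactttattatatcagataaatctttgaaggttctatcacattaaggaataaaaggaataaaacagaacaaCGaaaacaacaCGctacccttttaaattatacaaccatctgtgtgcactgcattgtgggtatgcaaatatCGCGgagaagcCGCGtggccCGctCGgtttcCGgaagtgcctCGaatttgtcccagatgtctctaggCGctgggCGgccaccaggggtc
Rab40c: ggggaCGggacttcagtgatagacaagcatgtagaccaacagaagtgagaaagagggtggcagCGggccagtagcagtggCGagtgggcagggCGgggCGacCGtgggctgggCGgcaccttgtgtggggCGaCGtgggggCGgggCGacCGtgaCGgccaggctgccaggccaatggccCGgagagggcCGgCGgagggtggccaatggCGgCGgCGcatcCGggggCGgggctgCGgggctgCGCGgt
Zfp869: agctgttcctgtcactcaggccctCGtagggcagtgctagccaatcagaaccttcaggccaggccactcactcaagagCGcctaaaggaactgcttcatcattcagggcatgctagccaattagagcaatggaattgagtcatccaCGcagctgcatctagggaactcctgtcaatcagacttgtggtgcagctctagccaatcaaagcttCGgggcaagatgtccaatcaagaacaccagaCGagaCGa
Hmga2: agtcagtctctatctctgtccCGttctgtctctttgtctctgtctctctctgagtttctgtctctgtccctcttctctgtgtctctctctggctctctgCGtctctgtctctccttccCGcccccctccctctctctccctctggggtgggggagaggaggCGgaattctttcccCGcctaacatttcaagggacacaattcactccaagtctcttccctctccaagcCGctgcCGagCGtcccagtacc
Rfx7: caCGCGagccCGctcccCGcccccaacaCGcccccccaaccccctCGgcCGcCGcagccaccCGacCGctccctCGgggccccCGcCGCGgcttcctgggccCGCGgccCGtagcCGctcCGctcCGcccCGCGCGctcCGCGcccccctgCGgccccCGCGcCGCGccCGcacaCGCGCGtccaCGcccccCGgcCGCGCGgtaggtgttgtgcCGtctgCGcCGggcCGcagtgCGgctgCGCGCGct
These sequences ran from CpG-poor to CpG-dense. The Zfp869 promoter held 6 CpG, the Hmga2 promoter 8, the Alyref2 promoter 12, the Rab40c promoter 24 and the Rfx7 promoter 47. The 2 strongest members were unlike in motif content. Rab40c held 4 matches to the GC box GGGCGG, the core bound by Sp factors, and 2 to the CCAAT box, whereas Zfp869 held 4 matches to CCAAT, 1 to the AP-1 core TGANTCA and none to the GC box. Alyref2 held 1 match each to the ETS motifs CGGAAG and GGAAGTG, which overlap each other there.

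Promoters inside broad regions were rich in CpG. Of 31396 listed start sites, 1672 lay inside a broad region, and the median of CpG in the 250 bases before them was 21. The median was 17 for the 7963 start sites in narrower regions called in all 8 libraries and 3 for the 20134 in no region, against 6 over all listed start sites. A GC box on either strand was present before 70.3% of start sites in broad regions, 60.8% of those in narrower regions and 33% of all listed ones. CCAAT was less common before start sites in broad regions, with 30.6%, 38.6% and 33.7% in the same order, and the ETS motif CGGAAG had 26.7%, 30.1% and 13.7%. Motifs of inducible factors were less common. The AP-1 core TGANTCA stood before 2.81% of them against 6.77% of all, the NF-kB motif GGNNTTTCC before 4.01% against 4.97%, and the interferon-stimulated motif GAAANNGAA before 5.8% against 7.14%. In narrower regions called in all 8 libraries these shares were 4.89%, 5.46% and 6.2%. The PU.1-like motif GGAAGTG begins with the GGAAG that ends the ETS motif CGGAAG. It stood before 11.4% of start sites in broad regions, 13.3% of those in narrower regions and 8.67% of all. The median GC content of the 250 bases was 65.2% for broad regions, 60.4% for narrower regions called in all 8 libraries and 52.4% for all listed start sites. The part of base composition in the motif shares was not tested. All motifs were searched on both strands, and a match describes letters, not binding.

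The labelled cell type was checked against marker genes, using the nearest protein-coding gene within 50 kb. All 12 macrophage markers had a region called in all 8 libraries, and 4 of them had a broad region. These were Csf1r, the receptor for macrophage colony-stimulating factor, the transcription factor Cebpa, the engulfment receptor Mertk and the antibody receptor Fcgr1. No broad region was assigned to any of 9 B cell, 14 T and NK cell, 12 neutrophil, 9 erythroid and megakaryocyte or 10 stem and progenitor markers. Of 10 dendritic cell markers 2 had one (Zbtb46 and Tcf4), and of 13 stromal and endothelial markers 2 had one (Pdgfrb and Pecam1). Regions of any width called in all 8 libraries were present at 3 of the 9 B cell, 6 of the 14 T and NK cell, 7 of the 12 neutrophil, 3 of the 9 erythroid, 7 of the 10 stem and progenitor, 8 of the 10 dendritic cell and 8 of the 13 stromal and endothelial markers. Accessibility alone does not show expression. Lmna and the other lamin genes had no broad region (0 of 3), so the deleted gene could not be checked among the members. The 8 peak lists held 44504 to 59750 peaks, and read counts and sequencing depth are unknown here.

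Most broad regions lay at gene starts. A listed start site fell inside 1160 of them (57.5%), against 11.9% of all regions on chromosomes 1 to 19. A further 64 (3.17%, against 3.9%) lay at the 3′ end of a gene, from the end itself to 3 kb past it. Another 211 (10.5%, against 3.61%) lay within 3 kb of an end of a gene for which no start site, and so no strand, was listed. The remaining 336 (16.6%, against 46.2%) were inside genes and 248 (12.3%, against 34.3%) elsewhere. Start sites of both strands fell in 241 broad regions, which is 20.8% of those with a start site, while the share was 13.7% over all regions with a start site. Atp6v1a, a subunit of the proton pump that acidifies lysosomes, shares such a member (chr16:44138866-44140026, 1161 bp) with Naa50, an acetyltransferase. A wider joined region can hold more start sites by its length alone, and that part was not tested.

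**Figure D1:**
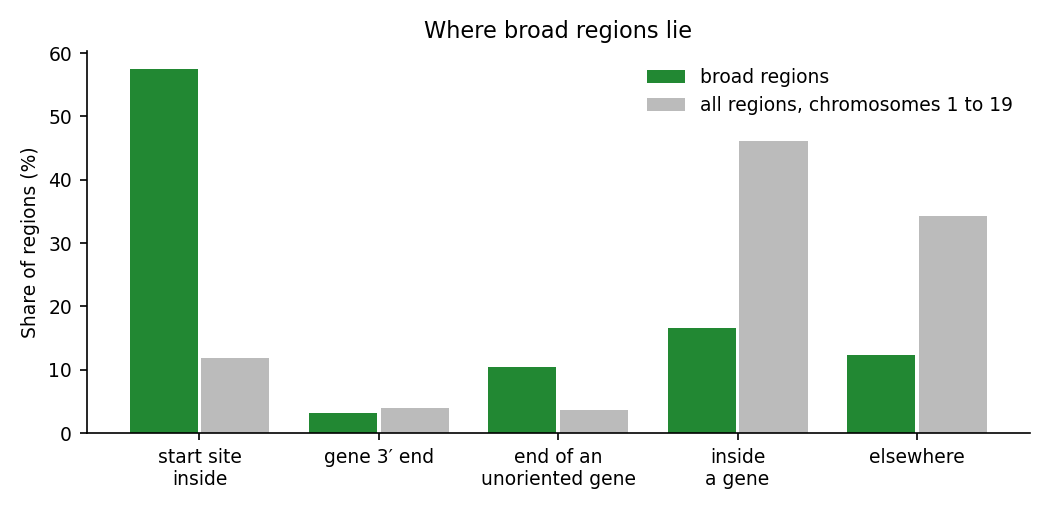
Share of regions (%, vertical axis) in each place class for the 2019 broad regions (green) and for all 75252 regions on chromosomes 1 to 19 (grey). Start sites make up 57.5% of the broad regions and 11.9% of all regions, while positions inside genes make up 16.6% and 46.2%.

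Joined widths were concentrated just above the threshold. The median was 1130 bp, 1886 members were under 1500 bp and 133 were wider, up to 3215 bp. Just inside the threshold were members of 1000 bp at Tarbp1, Clec2e and Tbxas1, and just outside were regions of 999 bp at Cyb5r1, Bnip3l and Cmbl. The excluded region at Cyb5r1, with 817 to 983 bp called, had a longer call in each of the 8 libraries than the member at Tarbp1, with 231 to 972 bp. Joining of offset peaks made some of the width, since 1614 (79.9%) held a single peak of 1000 bp or more in some library and 405 reached 1000 bp only by joining. Called lengths of 1000 bp or more were found in all 8 libraries for 198 members and in none for 361.

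Broad regions were also present in nearly every library. All 8 libraries held a peak in 1919 members (95%), against 40.4% of all regions, and 48 were called in 7, 20 in 6, 11 in 5, 18 in 4 and 3 in 3. Of members with a start site 96.9% were called in all 8, against 83% of all regions with one. Broad regions usually held more than 1 summit. After joining summits of the 8 lists within 100 bp, 526 members had 1 summit, 1042 had 2, 344 had 3 and 107 had 4 or more. The share with 2 or more was 73.9%, against 9.17% of all regions. Joining peaks of more lists can widen a region, and a wider region can hold more summits by its length. That part was not tested. Where there were 2, the median distance between them was 579 bp, with quartiles at 498 and 670 bp.

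Several of the widest members, at gene starts or inside genes, were wide in every library. On chromosome 9, a region of 2622 bp (chr9:124422836-124425457) held the start sites of LOC108167694 and of the long non-coding RNA 4930526I15Rik. Its called length was 2622 and 2557 bp in WT untreated, 2576 and 2501 bp in WT LPS, 2437 and 2364 bp in KO untreated, and 2268 and 2451 bp in KO LPS. All 8 values lay close to the full width, with both KO groups below both WT groups. Alyref2, a paralogue of an mRNA export factor, had a member of 2392 bp (chr1:171501866-171504257) with 4 summits and 1527 to 2071 bp called. At Crlf2, which encodes a receptor chain for the cytokine TSLP, the member spanned 2299 bp (chr5:109556790-109559088) and 1748 to 2033 bp were called. Hsp90ab1, which encodes a constitutive heat shock chaperone, had a member of 2086 bp (chr17:45572450-45574535) that holds the listed start of Gm35399 and was called over 1471 to 2050 bp. Inside Nsd1, a histone H3 lysine methyltransferase gene, a member of 2438 bp (chr13:55210470-55212907) had 6 summits and 1212 to 2181 bp called. Nr3c1, the glucocorticoid receptor gene, had a member of 2296 bp with 1470 to 2270 bp called.

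Wide and strong were different lists. Strength is given as the rank of the authors' -log10 p among the strongest 44504 peaks of each list, the length of the shortest list, as a percentile in which a higher value is stronger. The median member stood at a percentile of 75.35 to 77.04 in each library, against 48.8 to 49.4 for narrower regions. The 10 strongest members by mean percentile were all 1033 to 1312 bp wide, all held a listed start site and all stood at or above 99.65 in every library. They included 3 genes of Rab GTPases of membrane traffic (Rab40c, Rab5b and Rab11b), Vcp, the ATPase that extracts proteins for degradation, G3bp1 of stress granules, the translation factor Eif5 and the transcription factors Sp2 and Zbtb20, whose region holds the listed start of 4932412D23Rik. Rab40c (chr17:25919646-25920701), whose promoter is shown above, had the authors' fold enrichments of 15.2 to 16.8 over the 8 libraries. Its called length was 1009 and 1041 bp in WT untreated, 958 and 1046 bp in WT LPS, 1054 and 1023 bp in KO untreated, and 1012 and 932 bp in KO LPS, so that the 4 groups overlapped apart from KO LPS lying below KO untreated. Among the 10 members with most summits, Rab34 (1408 bp, 6 summits) was at the other end, with 200 to 915 bp called in scattered weak peaks.

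Broad regions were assigned to 1866 genes, which is 9.03% of 20665 protein-coding genes, and 96 genes had 2 or more. Genes with 3 each included Sertad2, Rftn1, which encodes a lipid raft protein, Rere, Gpr157 and Hivep3. All 3 Rftn1 members, inside the gene, were wider after LPS in both genotypes. In the member at chr17:50170716-50171738, called lengths were 401 and 660 bp in WT untreated, 870 and 1006 bp in WT LPS, 417 and 401 bp in KO untreated, and 787 and 730 bp in KO LPS. Regulatory genes of the myeloid lineage and of the LPS response had broad regions more often than 9.03%. These were 11 of 32 myeloid transcription factors (34.4%), 11 of 32 AP-1 and immediate early genes (34.4%) and 15 of 34 genes of the NF-kB pathway (44.1%). Where only genes with an end inside the region were counted, the shares were 28.1%, 9.38% and 14.7%, against 6.47% of all genes. Lower shares by nearest gene were found for 8 of 40 interferon-response genes (20%), 6 of 34 inflammatory cytokine and enzyme genes (17.6%) and 7 of 43 receptors and phagocytosis genes (16.3%). Shares above 9.03% were not particular to regulatory genes. Of actin and adhesion genes 6 of 29 had one (20.7%) and of cell cycle genes 6 of 32 (18.8%). Of lysosome genes 5 of 31 had one (16.1%) and of nuclear envelope genes 3 of 24 (12.5%, or 25% by ends inside). Of genes with any region, 12.5% had a broad one. Of cytosolic ribosomal proteins 3 of 40 had one (7.5%), of glycolysis genes 2 of 25 (8%) and of 24 homeobox and developmental genes none. Genes with more regions of any width have more chances to hold a broad one, and that part was not tested.

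The effect of LPS was read from the called length in each library. A member was called wider when both LPS libraries had a longer call than both untreated libraries of that genotype, and narrower in the reverse case. With 2 libraries against 2 no exact test can pass the usual threshold, so these are counts of groups that do not overlap. In WT, 454 of 2019 members (22.5%) were wider after LPS, against 23.2% of all regions, and 627 (31.1%) were narrower, against 28.2%. In KO, 413 (20.5%) were wider, against 18.6%, and 590 (29.2%) were narrower, against 22.8%. These shares lie near those of all regions in WT. The same direction in both genotypes was found for 258 members that were wider (12.8%, against 12.9%) and 315 that were narrower (15.6%, against 14.9%). The 258 are 56.8% of those wider in WT and 62.5% of those wider in KO. The median absolute LPS difference of a member was 87.5 bp in WT, where replicates differed by 60 and 68 bp, and 103.5 bp in KO, where they differed by 72 and 87 bp. The LPS values compare means of 2 libraries and the replicate values single libraries, so they are not like measures. The signed medians were -16 bp in WT and -25.5 bp in KO, since members differed in both directions.

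Single libraries moved these counts. Without WT untreated replicate 2, 689 members were wider in WT and 636 narrower, which turned the more common direction, and without WT untreated replicate 1, 545 were wider and 953 narrower. In KO, the more common direction turned without KO LPS replicate 2, with 777 wider and 683 narrower. Without KO untreated replicate 1 there were 670 and 753, without KO LPS replicate 1 there were 479 and 1066, and without KO untreated replicate 2 there were 528 and 921. Fewer libraries make the rule easier to meet. Peaks were also a little narrower in general after LPS, since the median called length over regions called in all 8 libraries was 472 and 485 bp in WT untreated and 467 and 464 bp in WT LPS. Called lengths were therefore also divided by that median of their library, an alternative chosen after seeing the data. Then 624 members were wider in WT (30.9%, against 26.9% of all regions) and 439 narrower (21.7%, against 23.9%). In KO the counts became 552 wider (27.3%, against 21.7%) and 508 narrower (25.2%, against 19.7%), so which direction was more common turned with the scaling in both genotypes as well. It also turned among the 133 members of 1500 bp or more, with 42 wider and 34 narrower in WT and 34 and 26 in KO.

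The share of members wider after LPS differed by place and was highest at gene 3′ ends. Of the 64 members there, 32 were wider in WT (50%), 35 in KO (54.7%) and 27 in both (42.2%), against 12.9% of all regions and 16.6% of regions of 500 to 999 bp at gene 3′ ends. Only 3 of the 64 were narrower in both (4.69%), against 13% of all regions at gene 3′ ends and 20.9% of those of 500 to 999 bp. Over all 2935 regions at gene 3′ ends, 11.3% were wider in both, so the high share was seen in the broad ones and not in 3′ ends as a whole. Of the 1160 members with a start site, 82 were wider in both genotypes (7.07%) and 166 narrower (14.3%), against 4.06% and 17.7% of all regions with a start site. This order turned with scaling by library, to 128 wider and 112 narrower. The median LPS difference at 3′ ends was 96.5 bp in WT and 152.75 bp in KO, and -21.5 bp and -35.5 bp at start sites. After scaling by library, the 27 were again all wider in both genotypes, among 30 in all. This was nearly fixed in advance, because the medians used for scaling were mostly lower after LPS. They were 467 and 464 bp in WT LPS against 472 and 485 bp in WT untreated. In KO they were 430 and 407 bp after LPS against 436 and 427 bp untreated. Over all places, the 258 members wider in both genotypes likewise all stayed wider. This class was drawn after earlier results of these data were seen, and the choice of members by joined width favours regions that are long in any 1 group. Of the 27, only those at Acod1, Ifnar2 and Stip1 had 1000 bp or more called in any untreated library. The share of 42.2% thus follows in part from the rule and is only a description.

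Several of these 3′ ends belong to genes known for the LPS response. Nfkbia encodes IkB-alpha, the inhibitor that NF-kB itself induces. Its region (chr12:55486880-55489219, 2340 bp) starts 190 bp past the 3′ end of the gene. Called lengths were 534 and 567 bp in WT untreated, 2294 and 2310 bp in WT LPS, 588 and 553 bp in KO untreated, and 2081 and 2016 bp in KO LPS. All 4 LPS libraries were thus far above all 4 untreated ones, and KO LPS lay below WT LPS. Saa3, an acute-phase serum amyloid gene, had a member over its 3′ end (chr7:46710289-46712812, 2524 bp). It was called over 593 and 566 bp in WT untreated, 2234 and 2242 bp in WT LPS, 431 and 524 bp in KO untreated, and 2356 and 1280 bp in KO LPS. Here the KO LPS replicates lay apart on either side of WT LPS.

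Acod1 encodes the enzyme that makes itaconate from an intermediate of the citric acid cycle in activated macrophages. Its region (chr14:103056760-103059974) was the widest of all members at 3215 bp, had 7 summits, and began 187 bp past the 3′ end. Called lengths were 606 and 1109 bp in WT untreated, 2513 and 2910 bp in WT LPS, 994 and 885 bp in KO untreated, and 2022 and 1901 bp in KO LPS. The long calls were not the strong ones. The strongest peak in the Acod1 region stood at the 95.8th and 92.6th percentile in WT untreated but at 62.0 and 65.8 in WT LPS, and at 92.8 and 96.3 in KO untreated but at 64.7 and 67.9 in KO LPS. The region past Nfkbia showed the same order, with 84.3 and 80.4 in WT untreated, 48.1 and 40.6 in WT LPS, 85.3 and 86.0 in KO untreated, and 47.2 and 60.4 in KO LPS. At Best1 and Fth1 the order was the opposite. These genes, for a chloride channel and the ferritin heavy chain, meet end to end, and the member there (chr19:9985115-9987033, 1919 bp) stood at 18.9 and 7.36 in WT untreated and at 81.6 and 77.6 in WT LPS. It was called over 693 and 447 bp in WT untreated, 1885 and 1891 bp in WT LPS, 706 and 591 bp in KO untreated, and 1663 and 1548 bp in KO LPS.

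**Figure D2:**
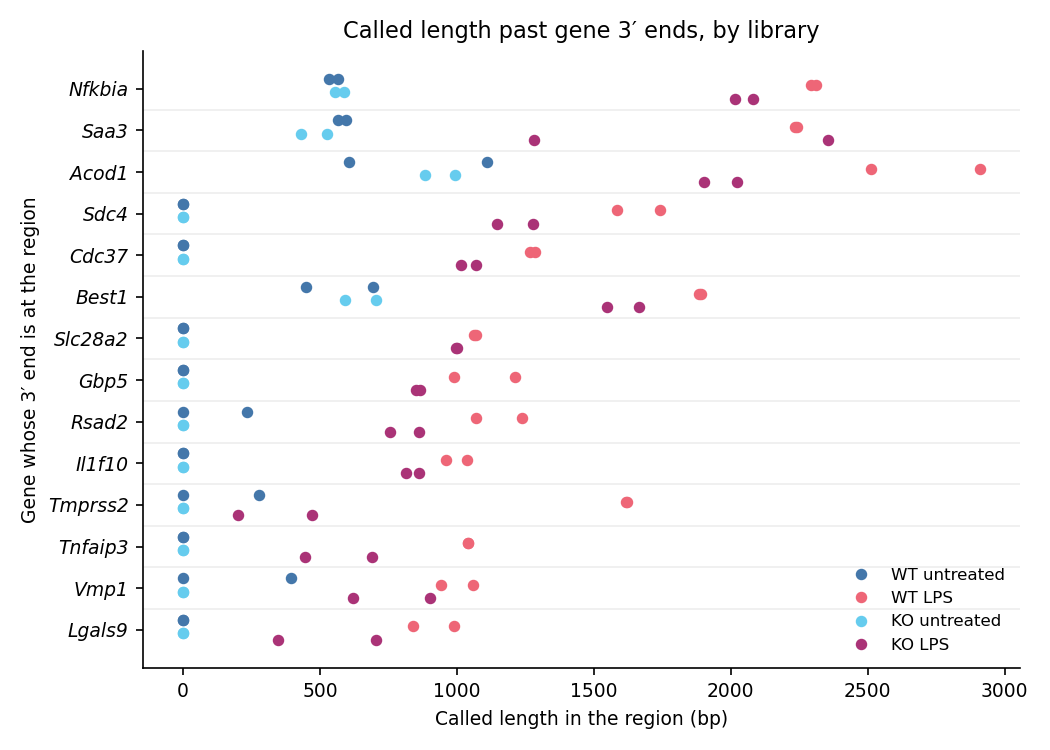
Called length (bp, horizontal axis) of each library in the 14 members at gene 3′ ends with the largest mean LPS difference, named by the gene whose 3′ end is nearest. Each point is 1 library and colours mark the 4 groups; the 4 LPS libraries lie to the right of the untreated libraries of their genotype in each of the 14.

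At 9 of the 64 members the 3′ flank was called in all 4 LPS libraries and in none of the 4 untreated ones (14.1%, against 0.743% of all members, 4.86% of all regions and 3.68% of all regions at 3′ ends). These 9 members reached the minimum width through their LPS calls alone, so this share follows in part from the rule and is only a description. An uncalled region is not shown to be closed. Sdc4, a heparan sulfate proteoglycan of the cell surface, had no call in any untreated library, 1743 and 1583 bp in WT LPS, and 1147 and 1277 bp in KO LPS (chr2:164421807-164423559). Tnfaip3, the A20 inhibitor of NF-kB, had 1041 and 1041 bp in WT LPS and 691 and 446 bp in KO LPS in its member (chr10:18998771-18999870). Both KO values were below both WT values at each gene. The others were past Cdc37, a kinase co-chaperone, the nucleoside transporter Slc28a2, the guanylate-binding protein Gbp5, the interleukin gene Il1f10, the cytokine receptor Il4ra, Lgals9 and Mrpl39. The Lgals9 region (chr11:78960675-78961730) also lies 449 bp from an end of Nos2, the inducible nitric oxide synthase, and was called over 989 and 840 bp in WT LPS and 348 and 705 bp in KO LPS. The Mrpl39 region (chr16:84717858-84718987) lies 2613 bp past Mir155hg, the host gene of miR-155, and was called over 817 and 1113 bp in WT LPS and 613 and 295 bp in KO LPS.

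Antiviral genes were at several others. Rsad2, which encodes viperin, had 0 and 235 bp called in WT untreated, 1070 and 1237 bp in WT LPS, none in KO untreated, and 860 and 756 bp in KO LPS (chr12:26441626-26442862). Ifit2, an RNA-binding interferon-induced gene, had 757 and 753 bp in WT untreated, 1273 and 1239 bp in WT LPS, 310 and 315 bp in KO untreated, and 1106 and 1227 bp in KO LPS (chr19:34576908-34578284). The member assigned to Tmprss2 (chr16:97562145-97563765, 1621 bp) lies between 3′ of that gene and an end of Mx2, 1244 bp away, which RefSeq lists as a transcribed pseudogene. It had 0 and 278 bp in WT untreated, 1621 and 1617 bp in WT LPS, none in KO untreated, and 470 and 200 bp in KO LPS. The gap between WT and KO after LPS was the largest of all members. A second member nearby (chr16:97444991-97446960, 1970 bp), 75 bp from an end of Mx1, was called over 543 and 903 bp in WT untreated, 1934 and 1884 bp in WT LPS, none in KO untreated, and 1507 and 1691 bp in KO LPS. Further members wider in both genotypes lay at the 3′ ends of Zfp36 (an mRNA decay factor), Vmp1 (948 bp from Mir21a), Slfn8, Ifnar2, Ms4a4d and Icam4 (1861 bp past Icam1). At 3 of the 27 (Saa3, Ifnar2 and Nxpe3) the region also held an end of a gene without a listed start site, so a start cannot be told apart from an end there.

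**Figure D3:**
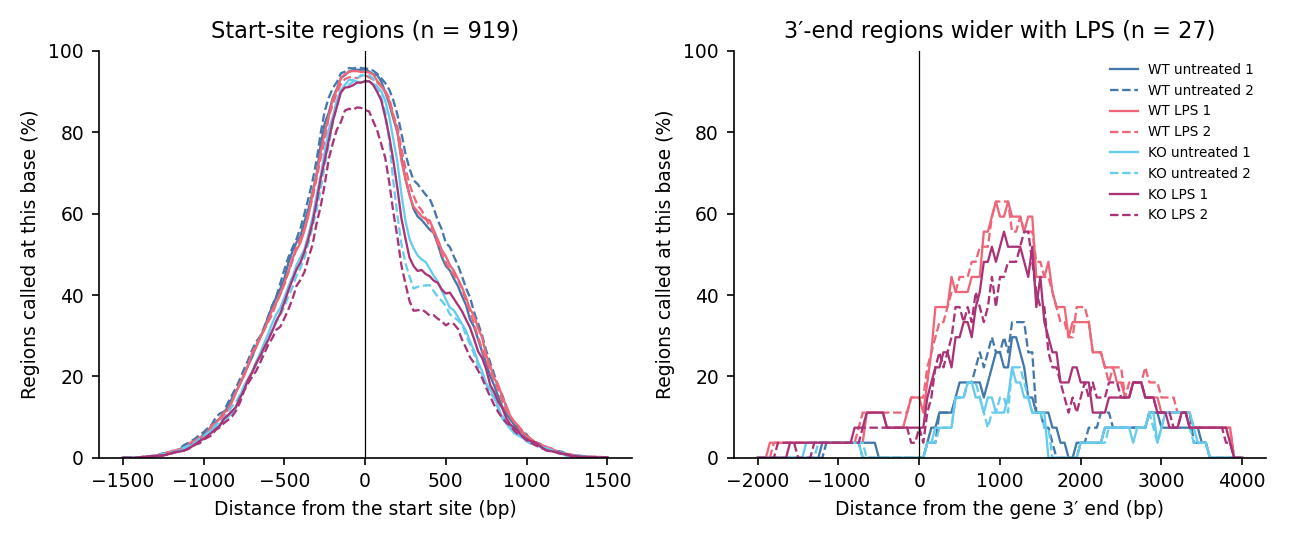
Share of regions (%) whose called peaks cover each base, for each library, against distance in bp from the start site in 919 members with start sites of 1 strand (left) and from the gene 3′ end in the 27 members wider after LPS in both genotypes (right), with positive distances in the direction of transcription. On the left the KO lines drop below the WT lines past the start site; on the right the LPS lines lie above the untreated lines at 1000 and 2000 bp past the 3′ end and meet or cross them beyond 3000 bp.

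The 27 members were chosen for their longer LPS calls near the 3′ end, so their profile is a description of where those calls lay. At the 3′ end itself 14.8% of the regions were called in each WT LPS library, 7.41% in each KO LPS library and none in the untreated ones. At 1000 bp past the end the shares were 59.3% and 63.0% in WT LPS and 51.9% and 44.4% in KO LPS, against 25.9% and 25.9% in WT untreated and 11.1% and 14.8% in KO untreated. In KO the calls were shorter. After LPS, 24 of the 27 (88.9%) were narrower in KO than in WT, while 1213 of all 2019 members (60.1%) were, against 38.2% of all regions. With the scaling by library 15 of the 27 (55.6%) were narrower and 4 wider, against 28.3% narrower and 21.9% wider over all members. The choice by joined width favours members that are long in WT LPS, as in any group. At Il4ra, 1020 and 936 bp were called in WT LPS and 358 and 252 bp in KO LPS, so its width came from WT LPS calls. Lower KO LPS values are partly built into these counts, and the size of that part was not tested.

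**Figure D4:**
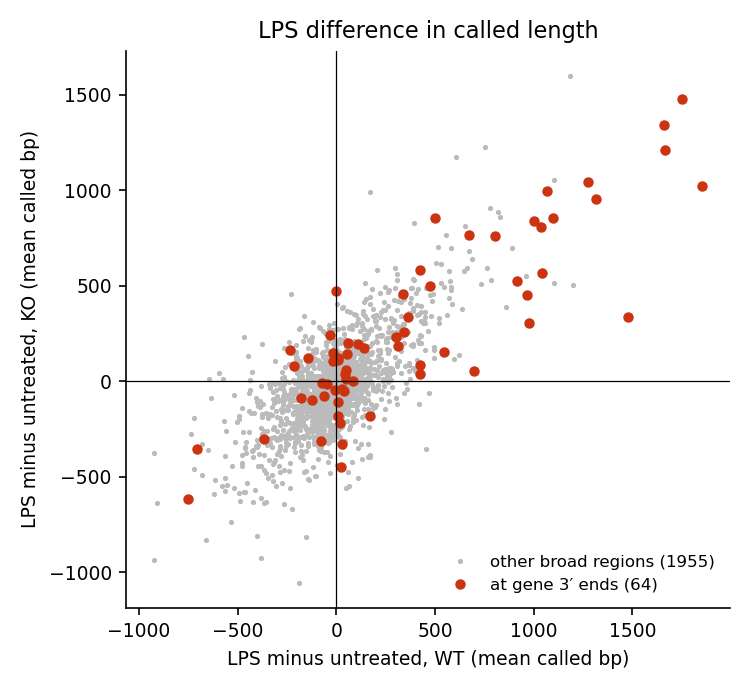
Mean called length after LPS minus untreated in KO (bp, vertical axis) against the same difference in WT (bp, horizontal axis), 1 point for each of the 2019 members, with the 64 at gene 3′ ends in red. The red points reach the upper right corner, where Nfkbia, Saa3 and Acod1 lie; by the rule of non-overlapping libraries 27 of them are wider and 3 narrower in both genotypes.

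The gene lists were also counted over all places, 3′ ends included. All 6 members of the inflammatory list were wider in KO and 5 in WT, 7 of 8 of the interferon list were wider in WT and 6 in KO, and 10 of 18 of the NF-kB list were wider in WT and 11 in KO. Over all regions 23.2% were wider in WT and 18.6% in KO. The list counts include the 3′-end members at Acod1, Nos2, Ifit2, Rsad2, Gbp5, Nfkbia and Tnfaip3. Those at Nos2, Gbp5 and Tnfaip3 had no call in untreated libraries and reached the minimum width by LPS calls alone. The longest untreated call was 235 bp at Rsad2, 588 bp at Nfkbia, 757 bp at Ifit2 and 596 bp at Ccl3. Each lay below the minimum width, which both WT LPS libraries exceeded there. Untreated libraries did reach that width at Acod1 (1109 bp in WT untreated replicate 2), Il1b and Gbp3. The list counts thus follow in part from the rule and are only a description. The choice by joined width favours members that are long in any group, the LPS groups included, and that part was not tested. The members below lie elsewhere. The region assigned to Ccl3, a chemokine gene 6262 bp away, is 1441 bp wide with 1 summit (chr11:83640141-83641581). It was called over 556 and 596 bp in WT untreated, 1385 and 1401 bp in WT LPS, 492 and 500 bp in KO untreated, and 1408 and 1362 bp in KO LPS. Unlike at Acod1, it stood at or above the 88.8th percentile in each of the 8 lists. Near Il1b, which encodes interleukin-1 beta, the member (chr2:129380153-129381408) had 1031 and 1055 bp in WT untreated, 1189 and 1202 bp in WT LPS, 829 and 397 bp in KO untreated, and 1098 and 989 bp in KO LPS. At an end of Actb, the cytoplasmic actin gene, a member of 1896 bp (chr5:142901368-142903263) had 998 and 797 bp in WT untreated, 1661 and 1641 bp in WT LPS, 392 and 391 bp in KO untreated, and 1596 and 1647 bp in KO LPS. The groups did not overlap between treatments in either genotype in these 3 members. The start site member of Gbp3, another guanylate-binding protein, was also wider in both, with 1065 and 1097 bp in WT untreated and 1378 and 1380 bp in WT LPS.

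Of the 315 members narrower after LPS in both genotypes, 166 held a start site and 71 lay inside genes. Hmga2, a chromatin architecture gene, had 1290 and 1159 bp called in WT untreated, 258 and 343 bp in WT LPS, 482 and 885 bp in KO untreated, and 372 and 241 bp in KO LPS (chr10:120476018-120477307). Inside Klhl35, 1083 and 1080 bp were called in WT untreated, 320 and 0 bp in WT LPS, 1012 and 865 bp in KO untreated, and none in KO LPS (chr7:99468054-99469175). Cebpa, the transcription factor of granulocyte and macrophage precursors, had 1137 and 1117 bp in WT untreated, 510 and 784 bp in WT LPS, 668 and 699 bp in KO untreated, and 543 and 541 bp in KO LPS. LPS and untreated libraries did not overlap within either genotype at these 3 genes. Of the 13 members of the myeloid transcription factor list, 7 were narrower in WT and 6 in KO, and 3 and 2 were wider. Over all members 31.1% and 29.2% were narrower and 22.5% and 20.5% wider, and over all regions 28.2% and 22.8% were narrower. Mertk, and the members inside Ncf4, a subunit of the NADPH oxidase, and Sirpa, an inhibitory receptor, were narrower after LPS in both genotypes. At the start site of Rfx7, a transcription factor gene whose promoter is shown above, the order held in KO only, with 851 and 1244 bp in WT untreated, 987 and 806 bp in WT LPS, 926 and 1289 bp in KO untreated, and 580 and 0 bp in KO LPS.

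KO was then set against WT. Calls in members were shorter in KO. The median called length was 987 and 1025 bp in WT untreated, 1001 and 996 bp in WT LPS, 908 and 871 bp in KO untreated, and 908 and 831 bp in KO LPS. Members with 1000 bp or more called numbered 931 and 1170 in WT untreated, 1013 and 981 in WT LPS, 592 and 504 in KO untreated, and 598 and 387 in KO LPS. All 4 KO libraries lay below all 4 WT libraries in both measures. The members themselves were nearly all still called in KO, with 1965 to 1997 held by a KO library and 1997 to 2012 by a WT library.

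**Figure D5:**
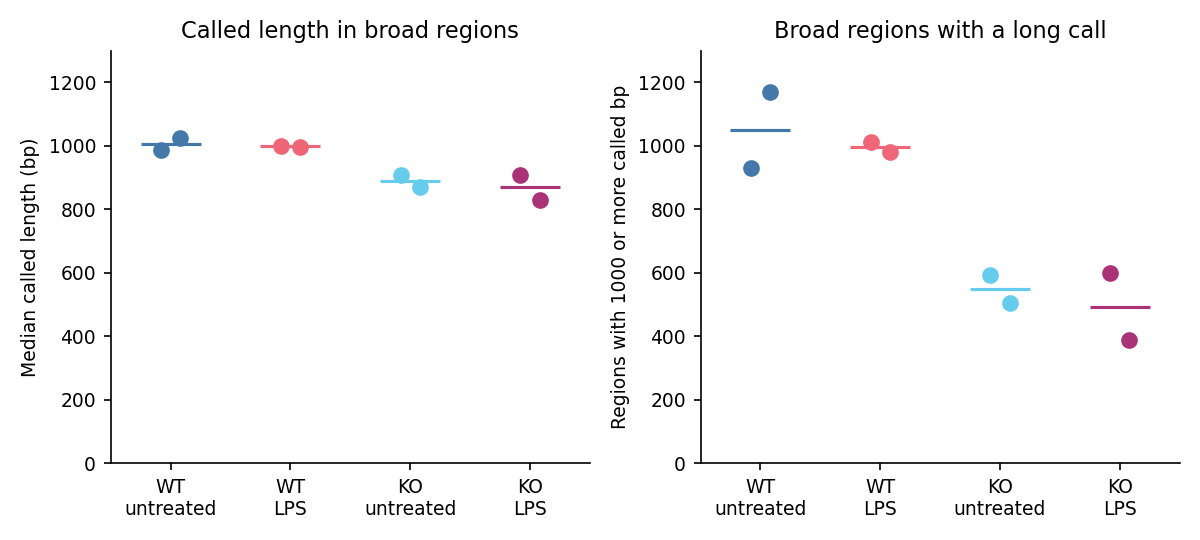
Median called length (bp, left) and number of the 2019 members with 1000 or more called bp (right) in each library, with points for libraries and lines for the mean of the 2 libraries of a group. The 4 KO libraries lie below the 4 WT libraries in both panels.

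In untreated cells 1208 members (59.8%) were narrower in KO than in WT, against 38.5% of all regions, and 59 (2.92%) were wider, against 3.52%. After LPS 1213 (60.1%) were narrower, against 38.2%, and 41 (2.03%) were wider, against 3.46%. Of members with a start site, 61.7% were narrower in KO in untreated cells and 61.6% after LPS. The shares were 57.9% and 54.6% of all regions with a start site. Single peaks of 1000 bp or more numbered 758 to 1029 in the WT libraries and 259 to 449 in the KO libraries. The choice by joined width thus favours members that are long in WT, and that part was not tested. In both treatments 785 were narrower (38.9%, against 19.9%) and 6 wider (0.297%, against 0.695%). The median difference was -112.5 bp in untreated cells and -126.5 bp after LPS, while the signed medians between replicates ran from -29 to 57 bp. The median absolute difference was 119.5 and 130 bp, against 60 to 87 bp between replicates. Here too the genotype values compare means of 2 libraries and the replicate values single libraries. The counts of wider members rest on single libraries. In untreated cells they became 98 and 177 without WT untreated replicates 1 and 2, and 165 and 170 without KO untreated replicates 1 and 2. After LPS they became 115 and 95 without WT LPS replicates 1 and 2, and 73 and 231 without KO LPS replicates 1 and 2. Most of the excess of narrower over wider members was lost under scaling. KO lists were shorter as well, and over regions called in all 8 libraries the median called length was 407 to 436 bp in KO against 464 to 485 bp in WT. Divided by that median, 541 members were narrower in untreated cells (26.8%, against 19.1% of all regions) and 506 wider (25.1%, against 15.8%). After LPS 571 were narrower (28.3%, against 20%) and 442 wider (21.9%, against 16.1%). Relative to their own libraries, members thus differed between genotypes in both directions, and whether the shorter calls in KO come from the cells or the libraries cannot be told apart.

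The shorter calls in KO lay more on the side of the gene. In the 919 members with start sites of 1 strand, the median called length past the start site was 487.5 and 536 bp in WT untreated, 509.5 and 487 bp in WT LPS, 415.5 and 383 bp in KO untreated, and 414.5 and 321 bp in KO LPS. Before the start site it was 442 to 473 bp in the WT libraries and 390 to 415.5 bp in the KO libraries. The member was called at 350 bp past the start site in 58.4% to 65.9% of cases in WT and 36.45% to 48.75% in KO, with KO LPS replicate 2 the lowest. At 350 bp before it the shares were 59.6% to 63.9% and 49.2% to 54.95%. The share of called bases that lay past the start was 49.7% to 50.9% in the WT libraries and 46.4% to 48.9% in the KO libraries. This was not particular to broad regions. In 5406 narrower start site regions called in all 8 libraries, it was 46.8% to 47.5% in WT and 43.6% to 45.8% in KO. The share moved with the called length of the library: it was lowest in KO LPS replicate 2, with the shortest median call (831 bp), and highest in WT untreated replicate 2, with the longest (1025 bp), and the part of length in it was not tested.

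Some members differed by far more than the median. Axl, a receptor for dying cells, had a member inside the gene (chr7:25781397-25782443) with 818 and 781 bp called in WT untreated, 936 and 1008 bp in WT LPS, none in KO untreated, and 985 and 994 bp in KO LPS. The 2 genotypes overlapped after LPS but not before. Foxp4, a forkhead transcription factor gene, had 1221 and 1081 bp in WT untreated, 1617 and 1301 bp in WT LPS, 396 and 427 bp in KO untreated, and 1004 and 939 bp in KO LPS at its start site (chr17:47923556-47925441). Dnaaf2, a dynein assembly factor gene, had 1522 and 1517 bp in WT untreated, 1280 and 1335 bp in WT LPS, 1114 and 458 bp in KO untreated, and 721 and 370 bp in KO LPS. KO was below WT in both treatments at Foxp4 and Dnaaf2. At Reck, which encodes an inhibitor of matrix metalloproteinases, 558 and 907 bp were called in WT untreated, 795 and 892 bp in WT LPS, 497 and 200 bp in KO untreated, and none in KO LPS (chr4:43875198-43876250). Past the 3′ end of Tgfbi, a secreted matrix protein gene, WT alone was wider after LPS, with 825 and 1066 bp in WT untreated, 1480 and 1808 bp in WT LPS, 767 and 710 bp in KO untreated, and 881 and 704 bp in KO LPS (chr13:56640698-56642505).

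Members wider in KO were few before scaling. Dyrk2, a protein kinase gene, had 696 and 742 bp called in WT untreated, 932 and 723 bp in WT LPS, 1116 and 1312 bp in KO untreated, and 713 and 698 bp in KO LPS at its start site (chr10:118868750-118870062). KO was above WT in untreated cells and below it after LPS. At the start of Ifitm10, an interferon-induced transmembrane family gene, 345 and 651 bp were called in WT untreated, 235 and 0 bp in WT LPS, 874 and 982 bp in KO untreated, and none in KO LPS. After LPS, the region assigned to Itgb1, the integrin beta-1 gene 30444 bp away, had the largest difference among the 41 members wider in KO (chr8:128653742-128655210). It was called over 1427 and 1464 bp in WT untreated, 991 and 965 bp in WT LPS, 1021 and 1229 bp in KO untreated, and 1371 and 1343 bp in KO LPS. LPS and genotype thus crossed in this member, with narrower calls after LPS in WT and wider calls in KO. Of the 3 genes of the nuclear envelope and lamina list with a broad region (Nup153, Syne3 and Tor1aip1, of 24), the 4 members were narrower in KO in 2 cases in untreated cells and in all 4 after LPS, while 59.8% and 60.1% of all members and 38.5% and 38.2% of all regions were.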

How the data were processed

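ATAC-seq peak lists of 8 libraries of bone marrow-derived mouse macrophages were analysed. MACS2, BWA 0.7.12 and mm10 appear in the submitters' processing notes; 1 list was deposited for each library, so replicates were called separately. Each deposited peak carries a score, a fold enrichment (a ratio over background), a -log10 p-value, a -log10 q-value and a summit offset in bp, all as the authors' peak caller gave them. Only positions, summits, fold and -log10 p were used, the last 2 to describe or rank peaks within a list.

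Peaks overlapping by at least 1 bp were joined, and joined regions of 1000 bp or more on chromosomes 1 to 19 were kept. Called length is the number of bases of a region under the peaks of 1 library. Summits within 100 bp were joined. Genes came from RefSeq (GRCm38.p6), which lists start sites for 79.6% of protein-coding genes; each region took the closest protein-coding gene up to 50 kb away, and the 3′ flank was 3 kb. Libraries were grouped by their titles. A group differed where no library overlapped with the other group, and with no counts and 2 libraries a group no p-value was computed. Named genes are the 15 widest, 10 strongest and 10 most-summit members, the 5 most different in each comparison and direction, the genes with most members (1 item is not reported here), the 3 regions on each side of the width threshold, and the widest 2 to 4 members of each gene list; the remaining genes, mainly at 3′ ends, were chosen after their values were seen. Members and lists were chosen with earlier results of these data known, and the classing by 3′ end, the scaling by library and the other flanks were chosen after seeing the data. Alternatives were a stricter -log10 p, equal numbers of peaks, a larger overlap, a larger width, single peaks only, other gene distances and leaving out each library. Scripts (Python 3.11.15, pandas 2.3.3, numpy 2.4.6, matplotlib 3.10.9) were tested on simulated data. Whether replicates are separate animals is not stated, so spread between them may be technical, and sequencing depth is unknown.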

Additional observations from a re-analysis of the deposited data

Results flagged for a closer look

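LPS went with calls in opposite directions in the genotypes at few members. There were 31 that were wider after LPS in WT and narrower in KO, and 35 that were narrower in WT and wider in KO. These are 1.54% and 1.73% of members, against 0.736% and 0.752% of all regions. At Ppp5c, a protein phosphatase gene, 658 and 996 bp were called in WT untreated, 1297 and 1261 bp in WT LPS, 1105 and 1020 bp in KO untreated, and 873 and 543 bp in KO LPS. The region near Itgb1 is among the 35. Likewise 15 members were wider in KO in untreated cells and narrower in KO after LPS, Dyrk2 among them, and 18 were narrower in untreated cells and wider after LPS. These are 0.743% and 0.892% of members, against 0.648% and 0.573% of all regions. In all 4 sets every library of the groups compared lay on its own side, and the difference between the effects was not tested.

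Chromosome X, which lies outside the autosomal rule, held 40 regions of 1000 bp or more among 1474 joined regions, and chromosome Y held 0 of 25. There are no control samples for this count.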

How the results depend on the processing

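Of 145 values recomputed under alternatives, 120 stayed within the range counted as unchanged and 25 moved. That range was a factor of 1.5 for counts. For shares it was the 95% binomial interval of the main value, which treats regions as independent. A direction can turn while both of its counts stay in range, as it did for LPS with scaling by library, so the 120 do not measure stability of direction. The more common direction after LPS turned from narrower to wider in both genotypes with scaling by library (624 wider and 439 narrower in WT, 552 and 508 in KO) and at 1500 bp or more (42 and 34, 34 and 26), in WT without WT untreated replicate 2 (689 and 636) and in KO without KO LPS replicate 2 (777 and 683). The share of members called in all 8 libraries was 89.2% with only peaks of a -log10 p of at least 20, 93% with equal numbers of peaks, and 97% among members with a single peak of 1000 bp or more. A minimum width of 1500 bp left 133 members and a share of 77.8% wider after LPS in both genotypes at 3′ ends, from 9 members. Leaving out each library in turn gave 1772 to 2000 members, 95.4% to 96.6% called in all remaining libraries, 68.9% to 69.9% at a gene end, and 41.8% to 47.6% of 3′-end members wider in both genotypes. Wider after LPS were then 432 to 689 in WT and 357 to 777 in KO, and narrower 603 to 953 and 486 to 1066. Wider in KO were 55 to 177 untreated and 38 to 231 after LPS, and narrower 1102 to 1513 and 1057 to 1661. These alternatives compare fewer libraries. Scaling by library, chosen after seeing the data, gave 506 wider and 541 narrower in KO untreated, and 442 and 571 after LPS; the cause was not tested. With only genes whose start or end lies inside a member, 49 of 492 listed genes had one in place of 86. No paired analysis was possible because the results come from no test. The lists hold no depth, so a missing call is not shown to be closed DNA.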
